A study of Danio rerio with 21 samples.

Results

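The genes described here sense DNA damage, stop the cell cycle and repair the lesion. They were chosen by name from a list of 39 DNA repair and damage checkpoint genes, and 37 of them were matched to 1 gene ID each among the 32057 genes counted. The names mre11a and fanca were matched to no row and are not analysed here. By role, 5 members belong to checkpoint signalling, 2 to the sensing of broken ends, 6 to homologous recombination, 4 to end joining, 7 to base excision and single-strand break repair, 8 to nucleotide excision, 3 to mismatch repair and 2 to crosslink repair.

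Ionizing radiation breaks DNA strands and oxidizes bases. Broken ends are bound by the complex of Mre11, Rad50 and Nbn and activate the kinase Atm, while single-stranded DNA activates Atr. The kinases Chek1 and Chek2 pass both signals on to the cell cycle. Breaks are then joined by the Ku proteins, Xrcc4 and Lig4, or copied from the sister chromatid with the help of Brca2 in dividing cells. Most of these proteins are controlled by modification rather than by the level of their mRNA. In zebrafish, ddb2 is known as a gene induced by light, together with the photolyases and the clock gene per2. The adult zebrafish telencephalon keeps dividing progenitors beside a majority of postmitotic neurons.

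RNA was sequenced from telencephalons of adult zebrafish of the AB strain, the wild type used in all groups, after 36 days of exposure to gamma rays from a cesium source or without exposure. Batch 1 held 3 libraries at 5 mGy/h, 3 at 0.5 mGy/h and 3 controls, and batch 2 held 6 libraries at 0.05 mGy/h and 6 controls, 21 libraries in all. Each library was a pool of several dissected telencephalons, so a value averages several fish, and p-values measure the spread between pools. Males and females were balanced per condition, and whether each pool held both sexes is not stated. Since the lowest dose rate belongs to batch 2 and the higher dose rates to batch 1, dose rate and batch cannot be told apart. In bulk tissue, fewer cells of a type and less RNA per cell cannot be told apart either.

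Reads counted on genes ranged over 45.4 to 71.6 M (megareads) per library in batch 1 and over 19 to 40.5 M in batch 2. A count of 3 corresponded to 0.0419 to 0.158 counts per M counted reads (CPM, after scaling of the libraries by the TMM method), a floor that covers counting error only. Markers of the telencephalon were detected in every library, for the 3 of 8 listed markers that were matched. Summed pineal markers (6 of 8 matched) ranged over 149 to 337 CPM at 5 mGy/h, over 11.2 to 188 CPM at 0.5 mGy/h and over 13 to 299 CPM in the controls of batch 1. Radial glia markers (3 of 5 matched), which include the neural stem cells, summed to 732 to 840 CPM at 5 mGy/h and 641 to 715 CPM at 0.5 mGy/h, above the 536 to 635 CPM of the controls without overlap. Oligodendrocyte markers (4 of 5 matched) summed to 894, 877 and 527 CPM at 5 mGy/h, against 526, 482 and 555 CPM in controls. The part of these cells in the results, those for ddb2, brca2 and pms2 included, was not tested. A pair of libraries stood apart from their group mates. In batch 1, 5 mGy/h replicate 1 correlated with its group mates at r = 0.924 and 0.936, against 0.99 between these. Its summed neuron markers (2 of 6 matched) stood at 855 CPM, against 1390 and 1260 CPM in its group mates and 1230 to 1330 CPM in controls. Its telencephalon markers summed to 560 CPM, against 449 CPM in each group mate. The part of these differences in the results was not tested. In batch 2, control replicate 6 correlated at 0.83 to 0.846 with the other controls, and 8.66% of its reads were unmapped, the highest share of all libraries. Without 5 mGy/h replicate 1, the sign of the log2 fold change at 5 mGy/h turned for 11 of 37 members, none of which exceeded 0.18 in size without it. Without control replicate 6, the sign at 0.05 mGy/h turned for 7 of 35 members. The intervals of the members and the counts over other repair genes without these libraries were alternatives chosen once values were known.

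No member passed the thresholds used here, a false discovery rate (FDR) under 0.05 over all genes tested and a fold change of at least 1.5, at any dose rate. At 5 mGy/h, 0 of 37 members were called by edgeR's quasi-likelihood test against the controls of batch 1, beside 0.00469% of all 21307 genes tested. The 0.5 mGy/h libraries likewise gave 0 of 37 members called, beside 0.00469% of all genes. In batch 2, 0 of the 35 members tested were called at 0.05 mGy/h, beside 0.00514% of 19454 genes. This test did not pair same-numbered libraries. The checkpoint kinase chek2 and the recombination gene xrcc2 did not pass the count filter used with edgeR in batch 2, with 2 to 18 and 2 to 14 reads per library. DESeq2 and limma voom with sample weights also called 0 members in each of these comparisons. At 0.05 mGy/h, DESeq2 tested chek2 and xrcc2 but gave no p-value for xrcc4 and ddb1.

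**Figure D1:**
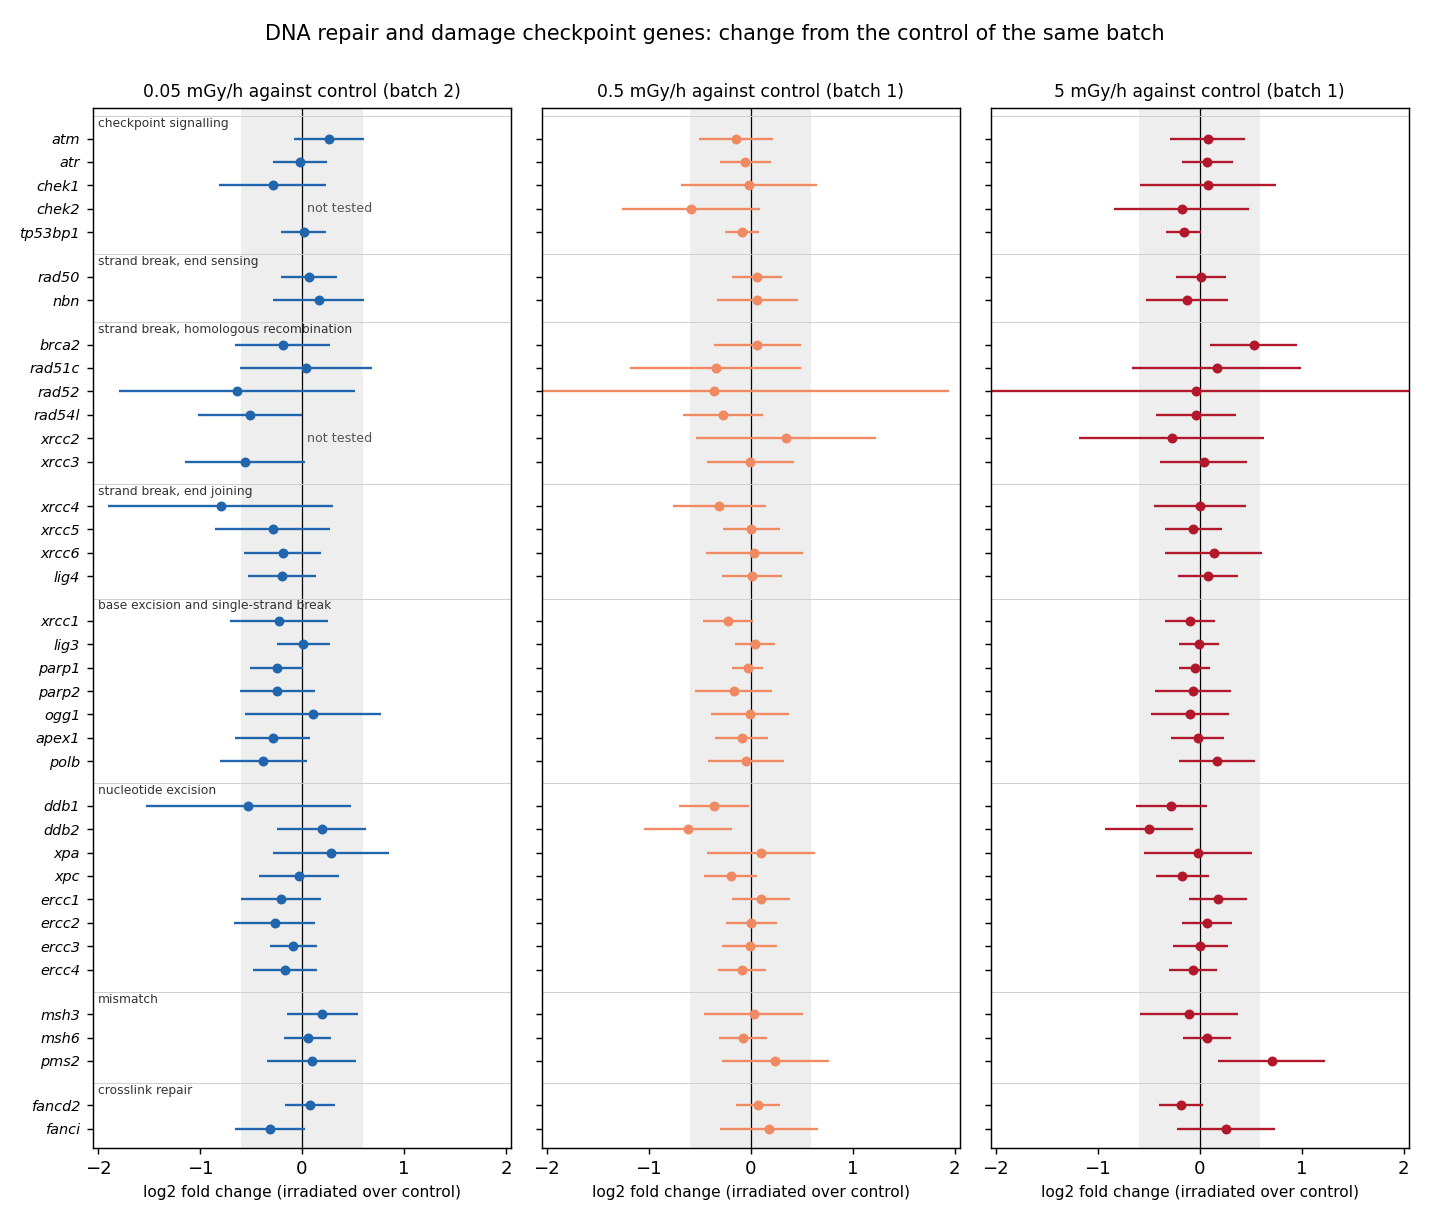
Log2 fold changes of the 37 members against the control of the same batch (x axis, irradiated over control), by pathway, as estimated by edgeR, with 95% confidence intervals. The grey band marks changes within 1.5-fold, the intervals of rad52 in batch 1 run past the axis, and chek2 and xrcc2 were not tested in batch 2. Most points lie close to 0, with ddb2 to the left at 0.5 and 5 mGy/h, and brca2 and pms2 to the right at 5 mGy/h.

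The intervals were narrow enough to bound many of these genes. At 5 mGy/h, the 95% interval of 25 of 37 members (67.6%) lay wholly within a 1.5-fold change in either direction, beside 43.2% of all genes. For 0.5 mGy/h it did so for 25 of 37 members, beside 45.2% of all genes, and at 0.05 mGy/h for 14 of 35 members (40%), beside 33.2%. Without control replicate 6, the last count was 27 of 35 (77.1%), beside 69.4%. Such counts depend on precision as well as on the size of a change. At 5 mGy/h the median standard error was 0.161 over the members and 0.221 over all genes. The higher share of members is therefore not read as smaller changes. The median log2 fold change over the members was -0.19 for 0.05 mGy/h, -0.02 for 0.5 mGy/h and -0.02 for 5 mGy/h, where the medians over all genes tested were -0.01, 0.01 and 0.03. Without control replicate 6, the median for 0.05 mGy/h was -0.03. The log2 fold change was negative for 20 of 37 members for 5 mGy/h, beside 44.4% of all genes, and for 22 of 37 for 0.5 mGy/h, beside 46.8%. Without 5 mGy/h replicate 1, it was negative for 23 of 37 members (62.2%) for 5 mGy/h, beside 50.1%. The median over the members was then -0.05, beside -0.0006 over all genes.

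At an unadjusted p under 0.05, 3 of 37 members were found at 5 mGy/h by edgeR, beside 5.76% of all genes, with 4 by DESeq2 and 5 by limma voom. The 0.5 mGy/h comparison gave 2 of 37, beside 2.37% of all genes, with 1 by DESeq2 and 4 by limma voom. At 0.05 mGy/h there was 1 of 35, beside 4.26% of all genes, with 1 by DESeq2 and 2 by limma voom. The shares of all genes are those of edgeR. For DESeq2 and limma voom they were not counted, here and below, so those counts of members have no background. The comparisons at 5 and 0.5 mGy/h share the 3 controls of batch 1, so a gene with low or high controls deviates in both.

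The member with the lowest p at 0.5 mGy/h was ddb2, which encodes the subunit of the UV-damage sensor that finds helix-distorting lesions for nucleotide excision repair. The 5 mGy/h libraries held 15.2, 11.7 and 12.6 CPM of ddb2, against 17.4, 17 and 21.5 CPM in the controls. The 0.5 mGy/h libraries held 9.55, 14.8 and 12 CPM. Every irradiated library of batch 1 thus lay below every control. Singly, 4.95% of all genes lay below at 5 mGy/h and 6.65% at 0.5 mGy/h. The controls are shared, and the share of genes below in both was not counted. The log2 fold change was -0.50 at 5 mGy/h (standard error, SE, 0.188, n = 3 each, edgeR FDR 0.811) and -0.62 at 0.5 mGy/h (SE 0.188, n = 3 each, edgeR FDR 1). In batch 2 the values overlapped, at 11 to 22.6 CPM (median 21.2) at 0.05 mGy/h and 11.4 to 21.3 CPM (median 17) in controls, with a log2 fold change of 0.19 (SE 0.202, edgeR FDR 0.768).

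**Figure D2:**
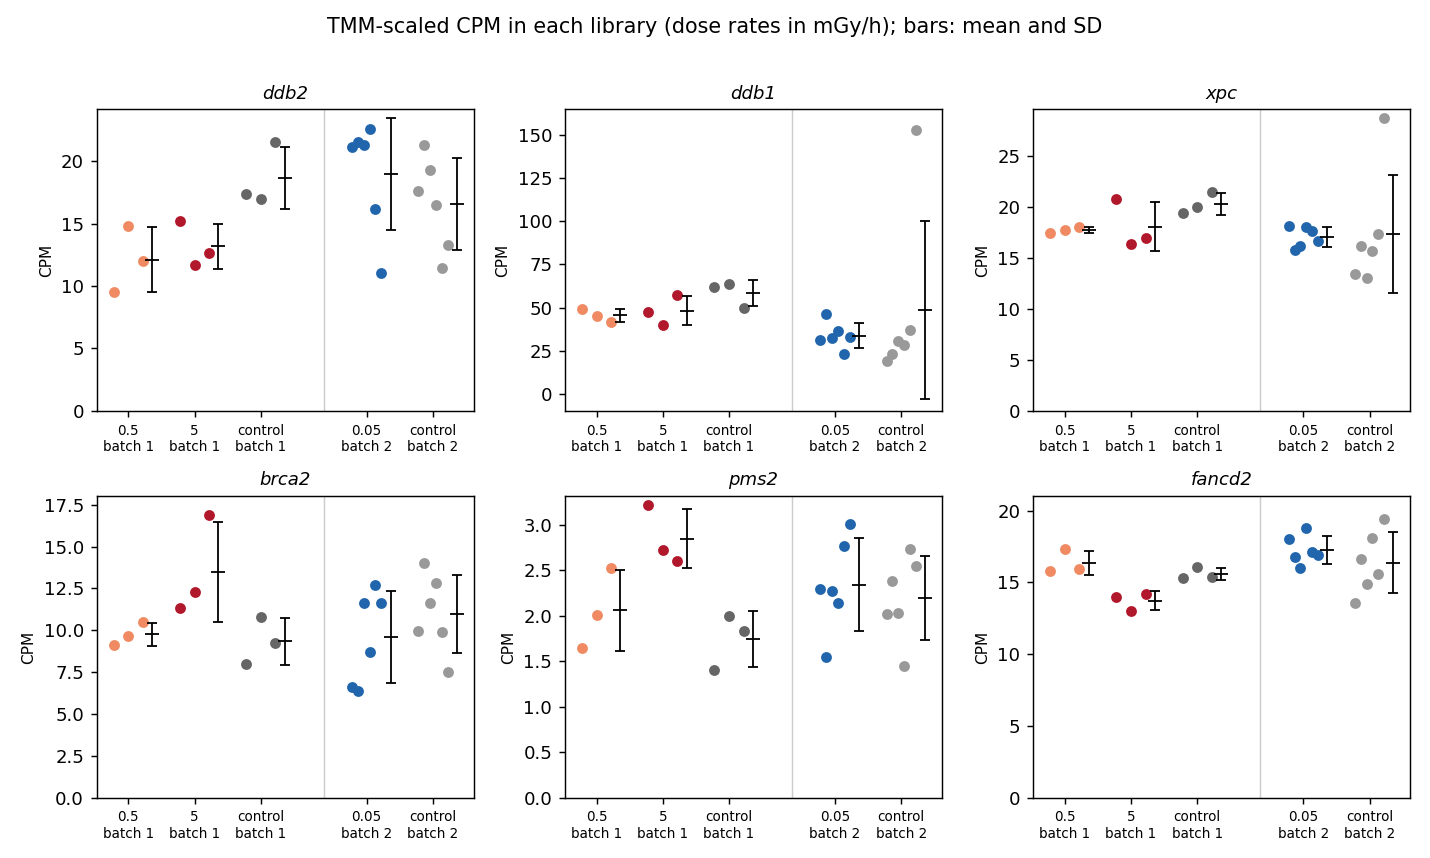
TMM-scaled CPM (y axis) of 6 members in each library, by dose rate in mGy/h and batch, with the mean and SD of each group as a bar. All 6 irradiated libraries of batch 1 lie below the 3 controls for ddb2, and the 5 mGy/h libraries lie above the controls for brca2 and pms2. Control replicate 6 of batch 2 stands at 153 CPM for ddb1 and 28.7 CPM for xpc.

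Its partners in damage recognition had lower levels at 0.5 mGy/h, without overlap, and overlapped the controls at 5 mGy/h. Ddb1, the partner of Ddb2 and an adaptor of a ubiquitin ligase, had 49.3, 45.3 and 41.7 CPM at 0.5 mGy/h, against 62.1, 63.4 and 49.7 CPM in controls, a log2 fold change of -0.36 (SE 0.15, n = 3 each, edgeR FDR 1). Its levels of 47.5, 40 and 57.3 CPM at 5 mGy/h overlapped the controls. Xpc, the lesion sensor that Ddb2 hands over to, had 17.4, 17.7 and 18 CPM at 0.5 mGy/h, against 19.4, 20 and 21.5 CPM in controls, a log2 fold change of -0.20 (SE 0.114, n = 3 each, edgeR FDR 1). At 5 mGy/h, replicate 1 held 20.8 CPM of xpc, and the other libraries held 16.4 and 16.9 CPM.

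For the later steps of nucleotide excision, values lay close to the controls in batch 1. For ercc2 and ercc3, the helicases that open DNA around the lesion, and ercc4, a nuclease subunit that cuts beside it, log2 fold changes in batch 1 ranged over -0.08 to 0.07. For ercc1, the partner of ercc4, the 5 mGy/h libraries held 12.3, 10.2 and 10.7 CPM, against 9.5, 10.1 and 9.74 CPM in controls. They lay above the controls by a log2 fold change of 0.18 (SE 0.123, n = 3 each, edgeR FDR 0.96). Xpa, which verifies the lesion, had log2 fold changes of 0.28 for 0.05 mGy/h, 0.10 for 0.5 mGy/h and -0.02 for 5 mGy/h, each with overlap. Without the libraries that stood apart it was 0.13 for 0.05 mGy/h and 0.18 for 5 mGy/h, and the sign at 5 mGy/h also turned for ercc2 (-0.04) and ercc3 (-0.14).

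Since ddb2 is known as a light-induced gene in fish, its values were set beside those of other such genes. The clock repressor per2 was the gene called at 5 mGy/h and fell to 94.3, 97.9 and 112 CPM, against 218, 210 and 226 CPM in controls, a log2 fold change of -1.10 (edgeR FDR 0.0396). The photolyase cry5, which repairs a UV lesion with light as its energy source, had 6.79, 3.73 and 5.24 CPM at 5 mGy/h and 3.39, 4.93 and 5 CPM at 0.5 mGy/h, against 9.44, 6.81 and 9.08 CPM in controls. Its log2 fold changes were -0.69 (edgeR FDR 0.811) and -0.93 (edgeR FDR 1). For cry-dash, another member of the family, the log2 fold change was -0.66 at 0.5 mGy/h (edgeR FDR 1). By DESeq2 it was -0.35 at 5 mGy/h (FDR 0.935). Leaving out 5 mGy/h replicate 1 gave log2 fold changes at 5 mGy/h of -0.58 for cry-dash (edgeR FDR 0.0361) and -0.92 for cry5 (edgeR FDR 0.0637). Neither was called, where 6.34% of all genes were. Over 6 genes that reverse lesions directly, the directions were mixed. These were cry5, cry-dash, the photolyase cpdp, mgmt, alkbh2 and alkbh3, so they are not a list of light-induced genes. At 5 mGy/h, 4 of these had a positive log2 fold change and 2 a negative one. Over the 5 matched light-responsive clock genes, summed levels were 294 to 346 CPM at 5 mGy/h and 358 to 427 CPM at 0.5 mGy/h, against 427 to 458 CPM in controls. This sum includes per2 and cry5, and per2 makes up a large part of it. Its drop thus largely restates that of per2 and says little on the other genes. The part of light-responsive genes in the ddb2 result was not tested.

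**Figure D3:**
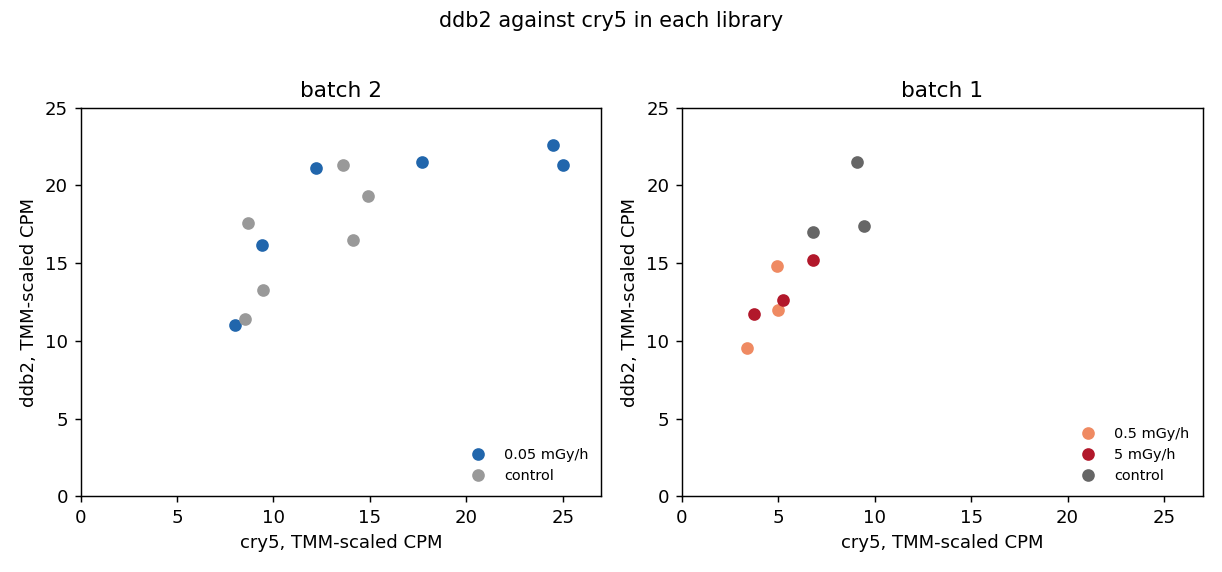
Level of ddb2 (y axis) against cry5 (x axis), both as TMM-scaled CPM, in each library of batch 2 (left) and batch 1 (right), coloured by dose rate. In batch 2, libraries with more cry5 held more ddb2 (r = 0.784 on log2 CPM). The relation did not pass the test over the differences in CPM between same-numbered libraries (r = 0.519).

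In batch 2, where the groups overlapped for per2, cry5 and ddb2, libraries with more cry5 held more ddb2 (Pearson's r = 0.784, Spearman's rho = 0.86, 12 libraries). The 12 libraries were not taken as independent, since same-numbered libraries tended to deviate together, so these values are a description. Values of r over the 12 libraries used log2 CPM, and those over pairs used differences in CPM, so they are not on one scale. Summed light-responsive genes tended to follow the replicate number. For replicate 2 they stood at 681 CPM at 0.05 mGy/h and 599 CPM in the control, and for replicate 5 at 252 and 233 CPM. Replicate 4 differed more, at 593 CPM at 0.05 mGy/h and 411 CPM in the control. Over the differences within the 6 pairs, the relation of ddb2 to cry5 did not pass the test (r = 0.519, exact permutation p = 0.283, adjusted p = 0.34 over 6 relations, rho = 0.486, exact permutation p = 0.356, adjusted p = 0.503). It was 0.391 without the 2 pairs farthest from the median of cry5 and 0.118 without pair 6.

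With per2, ddb2 gave r = 0.602 over the 12 libraries and 0.445 over the pairs (exact permutation p = 0.378, adjusted p = 0.378). For ddb1, r with cry5 was -0.03 over the 12 libraries and 0.423 without control replicate 6, and r with per2 was 0.239 and, without that library, 0.384. Over the pairs, ddb1 gave r = 0.843 with per2 (exact permutation p = 0.0125, adjusted p = 0.075). It was 0.315 without the 2 pairs farthest from the median of per2 and 0.819 without pair 6. Spearman's rho over the pairs was 0.714 (exact permutation p = 0.136). For xpc, r over the 12 libraries was -0.18 with cry5 and -0.07 with per2. None of the 6 relations passed the test over the pairs after adjustment. These relations were chosen with the values known. In batch 1 the groups separated by per2 and ddb2, so no pooled value is given.

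Among the genes of strand break repair, brca2 had the lowest p at 5 mGy/h. Brca2, which acts at broken ends in homologous recombination, had 11.3, 12.3 and 16.9 CPM at 5 mGy/h, against 7.97, 10.8 and 9.25 CPM in controls. The groups did not overlap, and the log2 fold change was 0.53 (SE 0.185, n = 3 each, edgeR FDR 0.807). It was 0.06 at 0.5 mGy/h (9.12, 9.63 and 10.5 CPM) and -0.19 at 0.05 mGy/h (SE 0.215, edgeR FDR 0.774). Without 5 mGy/h replicate 3 it was 0.32 (edgeR FDR 0.941), and without replicate 1 it was 0.64 (edgeR FDR 0.0638).

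The other members of homologous recombination had few reads. At 5 mGy/h the intervals of rad51c, rad52 and xrcc2 were wide, while those of rad54l and xrcc3 lay within a 1.5-fold change. In batch 1, rad51c, rad52, rad54l, xrcc2 and xrcc3 had log2 fold changes of -0.27 to 0.17 at 5 mGy/h and of -0.36 to 0.35 at 0.5 mGy/h. For rad52, counted 0 to 64 times per library of batch 1, the interval at 5 mGy/h spanned -2.32 to 2.25, and a change within it was not detectable. Its SE was 0.996, against 0.393 for xrcc2, which had fewer reads. Counts of rad52 varied widely between pools, at 64, 0 and 21 at 0.5 mGy/h. The count of 0 in 0.5 mGy/h replicate 2 allows up to 0.056 CPM.

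At 0.05 mGy/h, rad54l, a motor protein of homologous recombination, was the member with an unadjusted p under 0.05. It had 0.857 to 2.32 CPM (median 1.57) at 0.05 mGy/h, against 1.92 to 2.67 CPM (median 2.13) in controls, with overlap. The log2 fold change was -0.51 (SE 0.235, n = 6 each, edgeR FDR 0.75), and -0.47 without control replicate 6 (edgeR FDR 0.638), where the unadjusted p was no longer under 0.05. Pools of the same replicate number tended to deviate together in batch 2. With the number as a block, rad54l no longer had an unadjusted p under 0.05 (log2 fold change -0.56), while parp1 did (-0.23, edgeR FDR 0.695 for both). For xrcc3, which acts in the same pathway, the log2 fold change was -0.56 (edgeR FDR 0.75), and -0.27 without control replicate 6.

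The sum of markers of dividing cells was also lower at 0.05 mGy/h, with overlap, and no marker was called. This sum (9 IDs for 8 listed genes) was 86.6 to 97.4 CPM at 0.05 mGy/h, against 96.7 to 224 CPM in controls, with 96.7 to 113 CPM in the controls other than replicate 6. The log2 fold change was -0.88 for cdk1, the kinase that starts mitosis (edgeR FDR 0.75), and -0.48 for top2a, a topoisomerase of dividing cells (edgeR FDR 0.75). Both were chosen after their values were seen. Without control replicate 6 these were -0.71 (edgeR FDR 0.202) and -0.43 (edgeR FDR 0.254). For mki67, a marker of cycling cells, the log2 fold change was -0.25 at 0.05 mGy/h (edgeR FDR 0.75) and for pcna, the sliding clamp of replication, -0.40 (edgeR FDR 0.75). The values of mki67 and pcna include control replicate 6, where the sum was 224 CPM, and are not given without it. The other listed markers are not given singly. In batch 1 the sum was 107 to 137 CPM at 5 mGy/h, against 103 to 123 CPM in controls. The part of dividing cells in the values of rad54l and brca2 was not tested.

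The 4 end-joining members, which act in dividing and resting cells alike, overlapped their controls in every comparison. From a wider list of repair genes, 8 others of this pathway were tested at 5 mGy/h. Of these, 0 lay wholly above the controls (beside 3.94% of all genes) and 2 wholly below (beside 4.95%). By edgeR, 1 was lower at an unadjusted p under 0.05, beside 2.5% of all genes. Xrcc5, the larger Ku subunit, had 9.66, 9.04 and 9.54 CPM at 5 mGy/h and 9.43, 11 and 9.19 CPM at 0.5 mGy/h, against 10.7, 9.31 and 9.53 CPM in controls. Its partner xrcc6 had 14.6, 8.5 and 9.12 CPM at 5 mGy/h and 10.6, 9.1 and 10.3 CPM at 0.5 mGy/h, against 10.5, 9.14 and 9.67 CPM in controls. The value of 14.6 CPM, in replicate 1, stood well above the other libraries of batch 1. Without that library its log2 fold change was -0.15, in place of 0.14. The log2 fold changes of xrcc4 and lig4, which seal the joined ends, were 0.00 and 0.08 for 5 mGy/h, and -0.31 and 0.01 for 0.5 mGy/h.

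In batch 2, xrcc5 had 7.59 to 10.4 CPM (median 8.92) at 0.05 mGy/h, against 7.15 to 23.1 CPM (median 8.84) in controls, where the highest value was replicate 6. Its log2 fold change was -0.29 with that library (SE 0.262, n = 6 each, edgeR FDR 0.758) and 0.06 without it (edgeR FDR 0.902). Xrcc6 had 4.68 to 6.76 CPM (median 5.19) at 0.05 mGy/h, against 4.44 to 8.12 CPM (median 5.65) in controls. Of the 4 members of end joining, 4 had a negative log2 fold change at 0.05 mGy/h, and for xrcc4 and xrcc5 it was positive without control replicate 6.

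Among the kinases at the head of the response, no difference passed the test. Atm had 17.5, 20.2 and 25.6 CPM at 5 mGy/h and 19.1, 19.1 and 16 CPM at 0.5 mGy/h, against 17.8, 21.8 and 20.3 CPM in controls. Atr had 17.1, 19.1 and 21.6 CPM at 5 mGy/h and 18, 16.7 and 18 CPM at 0.5 mGy/h, against 17.7, 18.6 and 18.5 CPM in controls. Both overlapped the controls, and their log2 fold changes were 0.08 and 0.08 for 5 mGy/h, and -0.15 and -0.05 for 0.5 mGy/h. In batch 2, atm had 23.2 to 30.9 CPM (median 25.3) at 0.05 mGy/h, against 12.9 to 25.1 CPM (median 23.1) in controls, with a log2 fold change of 0.26 (edgeR FDR 0.75) that was 0.15 without control replicate 6. Atr had 19.4 to 22.4 CPM (median 20.7) at 0.05 mGy/h, against 15.7 to 23.4 CPM (median 22.9) in controls, a log2 fold change of -0.02.

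The effector kinases were rare. Chek1, which restrains the cell cycle when replication stalls, had 1.13, 1.19 and 0.859 CPM at 5 mGy/h and 1.11, 1.08 and 0.775 CPM at 0.5 mGy/h, against 0.895, 1.37 and 0.752 CPM in controls. Chek2, which acts below Atm, had 0.4, 0.369 and 0.485 CPM at 5 mGy/h and 0.277, 0.256 and 0.407 CPM at 0.5 mGy/h, against 0.374, 0.483 and 0.555 CPM in controls. The log2 fold change of chek2 at 0.5 mGy/h was -0.59, with an interval of -1.26 to 0.09 (edgeR FDR 1) and with overlap. In batch 2, chek1 had 0.493 to 1.08 CPM (median 0.837) at 0.05 mGy/h, against 0.686 to 1.31 CPM (median 1.01) in controls.

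Tp53bp1, a scaffold at broken ends that favours end joining, had 431, 378 and 444 CPM at 5 mGy/h and 437, 437 and 443 CPM at 0.5 mGy/h, against 460, 491 and 445 CPM in controls. Every irradiated library of batch 1 lay below every control, by log2 fold changes of -0.16 (SE 0.0736, n = 3 each, edgeR FDR 0.874) and -0.08 (SE 0.0736, n = 3 each, edgeR FDR 1). The highest irradiated library held 444 CPM and the lowest control 445 CPM. As for ddb2, the controls are shared, and the share of all genes below in both dose rates was not counted. For rad50 and nbn, which hold broken ends, log2 fold changes in batch 1 ranged over -0.12 to 0.06. Without 5 mGy/h replicate 1, that of nbn at 5 mGy/h was 0.05, in place of -0.12.

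Counts of members whose groups did not overlap are given beside the share over all genes. At 5 mGy/h, 3 of 37 members (brca2, pms2 and ercc1) lay wholly above the controls, beside 3.94% of all genes, and 3 (ddb2, tp53bp1 and fancd2) lay wholly below, beside 4.95%. At 0.5 mGy/h, 0 lay above, beside 4.42% of all genes, and 7 lay below, beside 6.65%. Those 7 were ddb2, ddb1, xrcc1, xpc, rad54l, tp53bp1 and parp1. At 0.05 mGy/h, 0 of 35 lay above or below, beside 0.314% and 0.54% of all genes.

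In base excision and single-strand break repair, the pathway for oxidized bases, the members were all bounded in batch 1. The interval lay within a 1.5-fold change for 7 of 7 members at 5 mGy/h, beside 43.2% of all genes. At 0.5 mGy/h it did so for 7 of 7, beside 45.2%. Of 17 other genes of this pathway, from a wider list of repair genes, 11 (64.7%) had such an interval at 5 mGy/h. The median SE at 5 mGy/h was 0.113 over the 7 members, 0.167 over the 17 others and 0.221 over all genes. Parp1, which marks strand breaks with ADP-ribose, had 122, 106 and 115 CPM at 5 mGy/h and 115, 115 and 117 CPM at 0.5 mGy/h, against 117, 119 and 117 CPM in controls. Its log2 fold changes of -0.05 and -0.03 had intervals of -0.20 to 0.10 and -0.18 to 0.12. Xrcc1, the scaffold of this pathway, had 29.6, 28.1 and 27.6 CPM at 0.5 mGy/h, against 29.7, 34.7 and 35.2 CPM in controls, a log2 fold change of -0.22 (SE 0.105, n = 3 each, edgeR FDR 1). The glycosylase ogg1, which removes oxidized guanine, the endonuclease apex1, the polymerase polb, the ligase lig3 and the polymerase parp2 had log2 fold changes of -0.17 to 0.17 in batch 1. The highest of these, polb at 5 mGy/h, was -0.05 without replicate 1.

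In batch 2, parp1 had 85.6 to 102 CPM (median 92.6) at 0.05 mGy/h, against 94 to 152 CPM (median 104) in controls. The groups overlapped, and the log2 fold change was -0.25 (SE 0.12, n = 6 each, edgeR FDR 0.75). It was -0.14 without control replicate 6 (edgeR FDR 0.623), where the interval of -0.28 to -0.00 excluded a change of 1.5-fold. Of the 7 members of this pathway, 5 had a negative log2 fold change at 0.05 mGy/h. For xrcc1 it was -0.23 with control replicate 6 and 0.05 without it.

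Among mismatch repair genes, pms2 had the lowest p at 5 mGy/h. Pms2, a nuclease that nicks the strand carrying the mismatch, had 3.22, 2.72 and 2.6 CPM at 5 mGy/h, against 1.4, 2 and 1.83 CPM in controls. The groups did not overlap, and the log2 fold change was 0.71 (SE 0.229, n = 3 each, edgeR FDR 0.807). The 0.5 mGy/h libraries had 1.64, 2.01 and 2.52 CPM, with a log2 fold change of 0.24 (edgeR FDR 1). In batch 2 it had 1.55 to 3.01 CPM (median 2.28) at 0.05 mGy/h, against 1.45 to 2.73 CPM (median 2.2) in controls. The mismatch sensors msh3 and msh6 had log2 fold changes of -0.11 to 0.20 over the 3 dose rates. For msh3 it was 0.09 at 5 mGy/h without replicate 1, in place of -0.11, and 0.10 at 0.05 mGy/h without control replicate 6, in place of 0.20.

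In crosslink repair, fancd2 and fanci form the complex that is loaded onto DNA at a stalled fork. Fancd2 had 14, 13 and 14.2 CPM at 5 mGy/h, against 15.3, 16.1 and 15.4 CPM in controls, a log2 fold change of -0.18 (SE 0.0935, n = 3 each, edgeR FDR 0.907) without overlap. The 0.5 mGy/h libraries had 15.8, 17.3 and 15.9 CPM, above the 5 mGy/h libraries. Fanci had log2 fold changes of -0.32 for 0.05 mGy/h (edgeR FDR 0.75), 0.18 for 0.5 mGy/h and 0.26 for 5 mGy/h.

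The dose rates of batch 1 were also compared directly. Between 5 and 0.5 mGy/h, 0 of 37 members were called, beside 0.00469% of all genes, and 2 had an unadjusted p under 0.05 by edgeR (2 by DESeq2), beside 5.24% of all genes. Without overlap, 3 members (brca2, rad51c and pms2) were higher at 5 mGy/h, beside 4.36% of all genes, and 1 (fancd2) was lower, beside 4.95%. Fancd2 was lower at 5 mGy/h by a log2 fold change of -0.25 (SE 0.0935, n = 3 each, edgeR FDR 0.938). Brca2 was higher by 0.47 (SE 0.185, n = 3 each, edgeR FDR 0.938). For ddb2 the interval of the difference was -0.31 to 0.55, so its levels at 5 and 0.5 mGy/h were not told apart.

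Changes at dose rates of different batches were compared as differences between the changes from the controls of each batch, over all 21 libraries. For 5 against 0.05 mGy/h, 0 of 37 members were called, beside 0% of 21293 genes, and 3 had an unadjusted p under 0.05 by edgeR (4 by DESeq2), beside 4.42% of all genes. These were fanci (difference in log2 fold change 0.57, SE 0.247), ddb2 (-0.70, SE 0.316) and brca2 (0.71, SE 0.324), each at an FDR of 0.879. For 0.5 against 0.05 mGy/h, 0 of 37 were called, beside 0% of all genes. There, ddb2 had a difference of -0.83 (SE 0.316, edgeR FDR 1) and was 1 of 37 members under 0.05, beside 2.03% of all genes (1 by DESeq2). Without control replicate 6, 5 members had an unadjusted p under 0.05 for 5 against 0.05 mGy/h, with xpc (-0.36, edgeR FDR 0.475) and fancd2 (-0.33, edgeR FDR 0.47) added. For 0.5 against 0.05 mGy/h there were 4, with ddb1 (-0.65), xpc (-0.37) and fanci (0.50) added, each at an edgeR FDR of 1. Leaving out each library in turn gave 0 to 5 and 0 to 4 members. The share of all genes under 0.05 was not counted in the fits without a library. Their counts therefore have no background and are not read as more members changed.

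The library that stood apart in batch 2 held the extreme value of many members. Of the 35 members tested there, 19 had their highest value of the 12 libraries in control replicate 6 (54.3%) and 7 their lowest (20%), beside 39% and 38.9% of all genes. For xrcc4 it held 17.7 CPM, where the other controls held 2.33 to 3.16 CPM and the 0.05 mGy/h libraries 2.43 to 4.54 CPM. For ddb1 it held 153 CPM, where the other controls held 18.8 to 36.8 CPM. Atm, at 12.9 CPM, and nbn, at 9.65 CPM, were lower there than in any other library of batch 2. In the same library, summed neuron markers (2 of 6 matched) stood at 355 CPM, the lowest of batch 2. Summed microglia markers (3 of 4 matched) stood at 794 CPM, and summed preoptic and hypothalamic markers (2 of 4 matched) at 1270 CPM, the highest. Summed telencephalon markers were also highest there, at 982 CPM. They stood at 442 to 468 CPM in the other controls and at 438 to 506 CPM at 0.05 mGy/h. Radial glia markers, at 961 CPM, and habenula markers (4 of 5 matched), at 548 CPM, were likewise the highest of batch 2. The part of these cells in the member values was not tested.

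**Figure D4:**
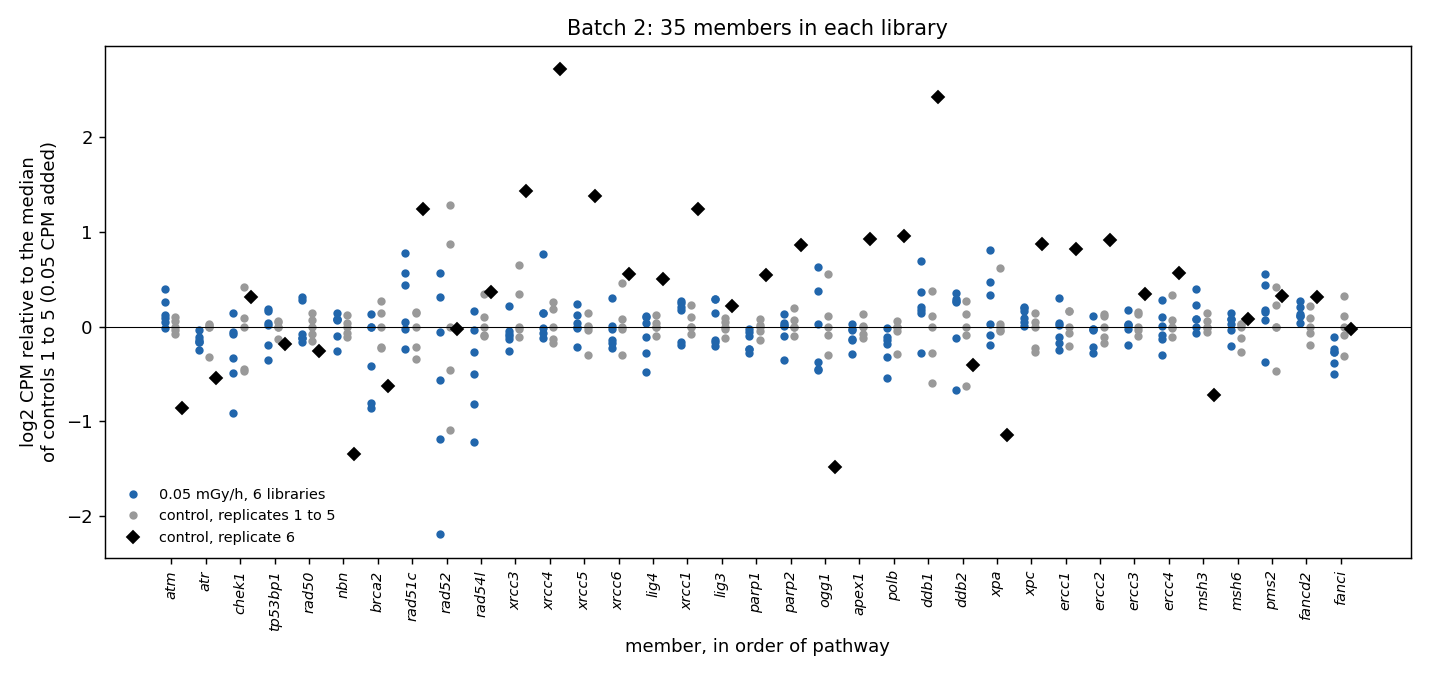
Each of the 35 members tested in batch 2 (x axis, by pathway), in every library, as log2 CPM relative to the median of control replicates 1 to 5 (y axis). The 6 libraries at 0.05 mGy/h and those 5 controls spread around 0 for most members, while control replicate 6 stands apart in both directions, highest for xrcc4 (17.7 CPM) and ddb1 (153 CPM).

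Without control replicate 6, 19 of 35 members had a negative log2 fold change, beside 48.1% of all genes, in place of 22 of 35 beside 51.3%. For ddb1 the log2 fold change was 0.28 without the library (edgeR FDR 0.718) and -0.53 with it. For xrcc4 it was 0.13 without the library (edgeR FDR 0.877) and -0.79 with it. The number of members called was 0 with and without the library, beside 0.041% of all genes without it. In batch 1, 5 mGy/h replicate 1 held the highest value of 13 of 37 members and the lowest of 4, beside 28.6% and 28.1% of all genes. Without it, 1375 genes passed the thresholds at 5 mGy/h (6.34% of 21673 tested), and 0 of 37 members did. Xpc then reached an FDR of 0.0492 by edgeR at a log2 fold change of -0.29, which is under 1.5-fold. In all, 7 of 37 members then had an unadjusted p under 0.05, beside 24.1% of all genes, among them ddb2 (-0.62, edgeR FDR 0.0944) and pms2 (0.61, edgeR FDR 0.175).

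The wider repair machinery was read from a second list of 105 IDs, none of them members. At 5 mGy/h, 0 of the 100 tested were called, and 1 higher and 4 lower had an unadjusted p under 0.05, beside 3.26% and 2.5% of all genes. Of the 100, 46% had a negative log2 fold change. Without 5 mGy/h replicate 1, 5 higher and 8 lower of 102 had an unadjusted p under 0.05 (12.7%, beside 24.1% of all genes), and 76 of 102 had a negative log2 fold change (74.5%, beside 50.1%). With all libraries, the lowest p was that of ercc6, the remodeller that starts repair at stalled RNA polymerase. It had 27.3, 27.9 and 27.8 CPM at 5 mGy/h and 28.5, 28.9 and 30.5 CPM at 0.5 mGy/h, against 33.9, 34.6 and 38.6 CPM in controls. Its log2 fold changes were -0.37 (SE 0.081, n = 3 each, edgeR FDR 0.807) and -0.29 (SE 0.081, n = 3 each, edgeR FDR 1). By DESeq2 they were -0.38 (FDR 0.018) and -0.28 (FDR 0.978). Without 5 mGy/h replicate 1, the log2 fold change of ercc6 at 5 mGy/h was -0.37 (edgeR FDR 0.0238). These changes were under 1.5-fold, so ercc6 was not called. The replication fork protector timeless was lower by -0.19 (edgeR FDR 0.807), and rev3l, the catalytic subunit of a translesion polymerase, was higher by 0.31 (edgeR FDR 0.851). Without 5 mGy/h replicate 1, polq was called (log2 fold change 3.28, edgeR FDR 0.0413). It was chosen after its values were seen, and it was counted 1, 25 and 18 times at 5 mGy/h, against 3, 3 and 0 times in controls, while the controls of batch 2 held 1 to 19 counts.

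In the 0.5 mGy/h libraries, 0 of 100 were called and 4 had an unadjusted p under 0.05, all lower, beside 1.43% of all genes. At 0.05 mGy/h, 0 of 94 were called and 3 had an unadjusted p under 0.05, all lower, beside 2.95% of all genes. They were fancf of the crosslink core complex (-0.54, edgeR FDR 0.75), the glycosylase neil3 (-0.52, edgeR FDR 0.75) and rpa1, which coats single-stranded DNA (-0.27, edgeR FDR 0.75). Of the 94, 74 had a negative log2 fold change (78.7%), beside 51.3% of all genes. This was 56 of 94 (59.6%) without control replicate 6, beside 48.1%.

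Values of a pair of genes that act beside the checkpoint are given last. The cell cycle inhibitor cdkn1a had 2, 2.52 and 1.92 CPM at 5 mGy/h and 2.01, 1.95 and 1.43 CPM at 0.5 mGy/h, against 1.38, 1.26 and 1.13 CPM in controls. Every irradiated library of batch 1 lay above every control, by log2 fold changes of 0.77 (SE 0.215, n = 3 each, edgeR FDR 0.807) and 0.52 (SE 0.215, n = 3 each, edgeR FDR 1). Singly, 3.94% of all genes lay above at 5 mGy/h and 4.42% at 0.5 mGy/h. The controls are shared, and the share of genes above in both was not counted. At 0.05 mGy/h its log2 fold change was 0.61 (edgeR FDR 0.75) with overlap. The ubiquitin ligase mdm2 had log2 fold changes of 0.12 for 0.05 mGy/h, -0.15 for 0.5 mGy/h and 0.07 for 5 mGy/h.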

How the data were processed

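Counts of reads per gene from 21 libraries were deposited by the authors without normalization. Per the labels and methods, reads of a stranded mRNA protocol were aligned with STAR to GRCz11. The strand column tested by the authors is not given in the sources used here. Column 4 was used, with column 2, which ignores strand, as an alternative. The 4 summary rows, 39.9 to 45% of reads, were left out of library sizes. Symbols were paired with 28988 of 32057 IDs.

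Counts were tested in edgeR 4.0.16 (R 4.3.3) within each batch, with TMM scaling, filterByExpr and the quasi-likelihood test, with Benjamini-Hochberg adjustment over all genes tested. Changes in different batches were compared as interactions over all libraries. The functions were tested on simulated data. Alternatives were DESeq2 1.42.0, limma 3.58.1 voom with sample weights, RLE scaling, no filter, a minimum of 10 counts, unstranded counts, 1 fit of all libraries, a fit of the groups compared, the replicate block, and leaving out each library. The members and lists were chosen with earlier results of these data known. Values per library are given for up to 6 members per comparison with the lowest p among those with an unadjusted p under 0.05 or no overlap, and for atm, atr, chek1, chek2, brca2, parp1, xrcc5 and xrcc6. Other repair genes are named at an unadjusted p under 0.05, at most 3 per direction, beside cdkn1a, mdm2, pcna, mki67 and per2. Some items are not reported here.

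In batch 2 the deviations of same-numbered libraries from their group means correlated in 6 of 6 pairs, at 0.176 to 0.311 (mean 0.228). Of 30 pairs with different numbers, 7 exceeded 0.1, up to 0.329 (mean -0.044). Of the 12 libraries, 8 correlated best with their own number. The numbers were taken to pair the libraries, which is an inference from these values.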

Additional observations from a re-analysis of the deposited data

Results flagged for a closer look

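In batch 2, where each group holds 6 libraries, 18 of 70 group and member combinations (25.7%) had a highest or lowest value far from the nearest other value, by a test that chance meets in about 1 in 20 groups. All but 1 of these values came from control replicate 6. In that library, atm at 12.9 CPM, nbn at 9.65 CPM and msh3 at 3.8 CPM lay far below the other controls. Of strand break repair, rad51c at 2.67 CPM, xrcc3 at 3.92 CPM, xrcc4 at 17.7 CPM, xrcc5 at 23.1 CPM and lig4 at 9.88 CPM lay far above them. So did xrcc1 at 65.9 CPM, parp1 at 152 CPM, parp2 at 27.8 CPM, apex1 at 143 CPM and polb at 51.2 CPM of base excision, and ddb1 at 153 CPM, xpc at 28.7 CPM, ercc1 at 18.6 CPM and ercc2 at 34.2 CPM of nucleotide excision. The other value was xrcc4 at 4.54 CPM in 0.05 mGy/h replicate 2, above the rest of its group.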

How the results depend on the processing

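The number of members called was 0 in each of the 6 comparisons under every alternative run, including 0 to 0 when each library was left out. The median log2 fold change of the members at 0.05 mGy/h was -0.0268 by limma voom with sample weights, in place of -0.19. Leaving out each library moved the median over -0.0562 to 0.00506 for 5 mGy/h, over -0.0603 to -0.00804 for 0.5 mGy/h and over -0.235 to -0.0312 for 0.05 mGy/h. By limma voom the log2 fold change was -0.124 for xrcc6 at 5 mGy/h, 0.0459 for chek1 at 0.5 mGy/h and 0.0659 for xrcc5 at 0.05 mGy/h, and on unstranded counts chek1 was at 0.0125, each with the opposite sign to the reported value. Leaving out a library also changed signs. In the 5 mGy/h comparison the values ranged over -0.102 to 0.19 for atm, -0.0353 to 0.149 for atr, -0.0885 to 0.365 for chek1, -0.103 to 0.00381 for parp1 and -0.154 to 0.28 for xrcc6. In the 0.5 mGy/h comparison they ranged over -0.192 to 0.262 for chek1, -0.041 to 0.182 for brca2, -0.08 to 0.0631 for xrcc5 and -0.00956 to 0.1 for xrcc6, and in the 0.05 mGy/h comparison over -0.0931 to 0.0137 for atr and -0.389 to 0.0643 for xrcc5. These causes were not tested. Calls over all genes varied more, with 88 by DESeq2 at 5 mGy/h where edgeR gave 1, and 0 to 1375 when a library was left out. With the replicate block, the log2 fold change of ddb2 was -0.49 at 5 mGy/h and -0.62 at 0.5 mGy/h. In batch 1 the replicate numbers did not pair the libraries (1 of 9 same-numbered pairs correlated over 0.1). Low counts limit the rarest members, rad52, chek2 and xrcc2, and rad52 also varied widely between pools.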
